A study of Rattus norvegicus with 9 samples.

Results

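Metallothioneins are small, cysteine-rich proteins that bind zinc and copper, and, in exposed cells, cadmium. They buffer free zinc and react with oxidants. This account is about a pair of them in rat mesangial cells, Mt1 and Mt2A, the members of the family that are expressed in most tissues and are induced by metals, glucocorticoids and inflammatory cytokines. They were chosen by identifier, ENSRNOG00000038047 as Mt1 and ENSRNOG00000043098 as Mt2A, and were 2 of 30560 genes in the deposited table. The names came with the choice of members. The deposited tables give identifiers without names and the reference table holds no Ensembl identifier, so the pairing of name and identifier was not checked here. Transcription of these genes is driven by the zinc-sensing factor MTF1, which binds metal response elements in their promoters. In the reference annotation the chromosome 19 cluster runs Mt1, Mt2A, Mt3, Mt4 with no gene between them.

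RNA came from HBZY-1, an established rat glomerular mesangial cell line; mesangial cells hold the capillaries of the kidney's glomerulus together and can contract. The groups, of 3 libraries each, were cells given a high-dose water extract of lyophilized powder of the leech Poecilobdella manillensis, cells of an LPS-induced inflammatory model (LPS is a bacterial outer membrane lipid used to provoke inflammation), and control cells. The labels give no dose or time and do not say whether the extract group also received LPS or whether control cells received a vehicle. The replicates are described as biological without saying whether they were separate cultures on separate days. The p-values set group differences against the spread between these libraries, whatever the replicates were. A difference in handling between groups cannot be told apart from treatment.

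Values are TPM, an abundance relative to all other transcripts of the same library, corrected for transcript length. TPM keeps no record of read depth, so the depth behind each value is unknown and counting error cannot be given. The lowest correlation between libraries of a group was 0.9766 and the highest between groups 0.9689 (Pearson's r across the 12192 tested genes, which are not independent replicates). Marker genes of mesangial and other kidney cells could not be looked up without gene names, so the labelled cell type was not checked, and a change in RNA per cell cannot be told apart from a change in the cells that make up a culture.

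The promoters of both genes are shown because their metal response elements are the best known control sequences of the family. The sequences are RefSeq's, build GRCr8, minus strand, the 250 bases before the gene's start in the direction of transcription, with the core of the metal response element in capitals (TGCACNC or TGCGCNC, on either strand). The Mt1 window lies at chr19:10832976-10833225 and that of Mt2A at chr19:10838709-10838958 in that build. The build behind the TPM values is not given in the sources used here, and no measured value is tied to these coordinates.
Mt1: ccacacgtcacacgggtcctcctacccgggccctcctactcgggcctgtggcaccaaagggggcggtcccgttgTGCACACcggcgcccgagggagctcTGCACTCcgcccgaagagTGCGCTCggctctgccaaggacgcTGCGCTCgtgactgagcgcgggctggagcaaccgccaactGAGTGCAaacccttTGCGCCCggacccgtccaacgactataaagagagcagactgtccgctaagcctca
Mt2A: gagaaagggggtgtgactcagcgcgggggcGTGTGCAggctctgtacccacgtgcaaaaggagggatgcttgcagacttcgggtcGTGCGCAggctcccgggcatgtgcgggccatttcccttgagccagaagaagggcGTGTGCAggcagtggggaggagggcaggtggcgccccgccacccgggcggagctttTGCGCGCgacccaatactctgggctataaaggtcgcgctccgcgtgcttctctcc

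The Mt1 window held 6 cores and the Mt2A window 4. The cores of Mt1 began 176, 151, 133, 109, 69 and 55 bases before the start, and those of Mt2A 220, 165, 111 and 55 bases before it. Of 33469 rat promoter windows of this length, 20.6% held at least 1 such core, 0.266% held at least 4 and 0.0269%, or 9 windows, held at least 6. Each window also held 1 match to the TATA box letters TATAAA, 32 bases before the start in Mt1 and 31 in Mt2A, as did 12.9% of windows. Each further held 1 match to TGACNNNGC, the core of the antioxidant response element, 101 bases before the start in Mt1 and 237 in Mt2A, and 10.1% of windows did so. No 2 of these matches overlapped. They are matches of letters and do not show binding. The motifs were chosen with both promoters in view, so the shares describe the windows and test nothing.

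Mt2A was an abundant transcript whose level was raised more than 3-fold in the LPS libraries and stood between the other groups in the extract libraries. In extract cells it had 1072.06, 1075.68 and 1109.72 TPM. It had 2054.28, 2205.30 and 1829.28 TPM in LPS cells, against 617.89, 562.54 and 568.64 TPM in control cells. The lowest LPS library was above every control library by more than 1000 TPM. The 3 groups did not overlap, in the order LPS, extract, control. Such a lack of overlap was common: 50.1% of tested genes for LPS and control, 65.1% for extract and LPS, and 61.1% for extract and control. The share with all 3 groups apart was not counted. The means were 1086 ± 20.8 TPM in extract, 2030 ± 189 TPM in LPS and 583 ± 30.3 TPM in control cells (SD, n = 3 each). The coefficient of variation was 1.91% in extract, 9.32% in LPS and 5.21% in control cells, so the LPS libraries spread most.

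**Figure D1:**
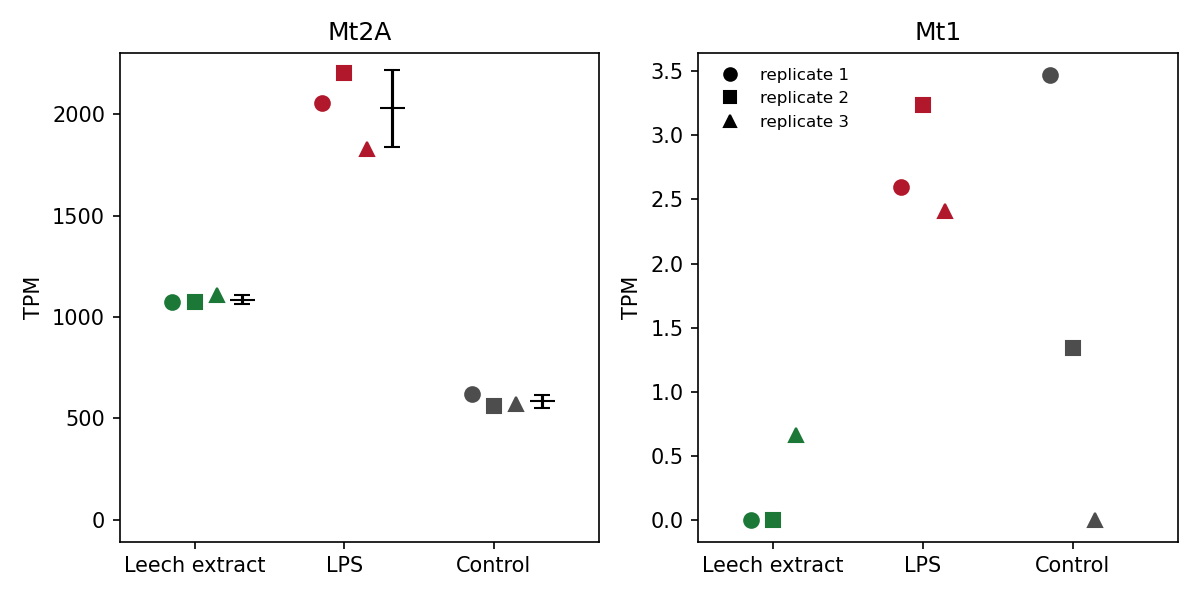
TPM of Mt2A (left) and Mt1 (right) in each library by group, with a separate vertical scale for each gene; marker shape gives the replicate number, and the black bars of Mt2A are the mean and SD (n = 3). The Mt2A groups do not overlap, with means of 1086 TPM in extract, 2030 TPM in LPS and 583 TPM in control cells, while Mt1 stays at or below 3.47 TPM in every library. Depending on the pair of groups, 50.1% to 65.1% of tested genes did not overlap either.

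As a share of the library, Mt2A took 0.107% to 0.111% of all TPM in extract cells, 0.183% to 0.221% in LPS cells and 0.0563% to 0.0618% in control cells. Ranked by TPM it was gene 140 to 145 in the extract libraries, gene 66 to 77 in the LPS libraries and gene 227 to 248 in the control libraries. A single transcript, ENSRNOT00000067391, had the same TPM as the gene in all 9 libraries. It was tied to the gene by these equal values and not by annotation. The next nearest transcript differed by up to 717.09 TPM in a library.

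LPS versus control addressed what the inflammatory model did to the pair. Mt2A rose by 1.79 ± 0.063 (SE) on the log2(TPM + 1) scale, which is 3.47-fold, with a 95% confidence interval of 1.65 to 1.94 (limma adjusted p = 7.18e-08). Of the 12192 genes tested, 9.79% were called higher in LPS cells at an adjusted p below 0.05, or 17.2% after the libraries were rescaled by the median of ratios, where Mt2A rose by 1.89. Its log2 fold change was the 86th highest of all tested genes, and its gain of 1447 TPM the 6th highest. The groups did not overlap for 50.1% of tested genes, so a lack of overlap was common.

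Extract versus LPS addressed how extract cells differed from the model. Mt2A fell by 0.90 ± 0.063 (SE) on the log2 scale, 1.86-fold lower in extract cells, with an interval of -1.04 to -0.76 (limma adjusted p = 2.18e-06). In the same comparison 25.0% of tested genes were called lower in extract cells, or 29.4% after median-of-ratios scaling. The groups did not overlap for 65.1%. Its mean fell by 943.8 TPM, the 10th largest loss of all tested genes, while the fold change was the 354th lowest.

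Extract versus control addressed how far extract cells stood from control. Mt2A was higher in extract cells by 0.90 ± 0.063 (SE) on the log2 scale, or 1.86-fold, with an interval of 0.75 to 1.04 (limma adjusted p = 3.49e-06). Of the tested genes, 22.3% were called higher in extract than in control cells, or 26.3% after median-of-ratios scaling. The groups did not overlap for 61.1%. The fold change was the 241st highest and the gain of 503 TPM the 28th highest. These comparisons share libraries in pairs, so they are not independent of each other. On the TPM scale the extract-control difference of Mt2A was 34.8% of the LPS-control difference, and between 32.5% and 37.0% when any 1 library was left out. On the log2 scale it was 50.0%, between 48.0% and 51.8%. Without a statement that extract cells received LPS, this share does not measure a reversal.

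**Figure D2:**
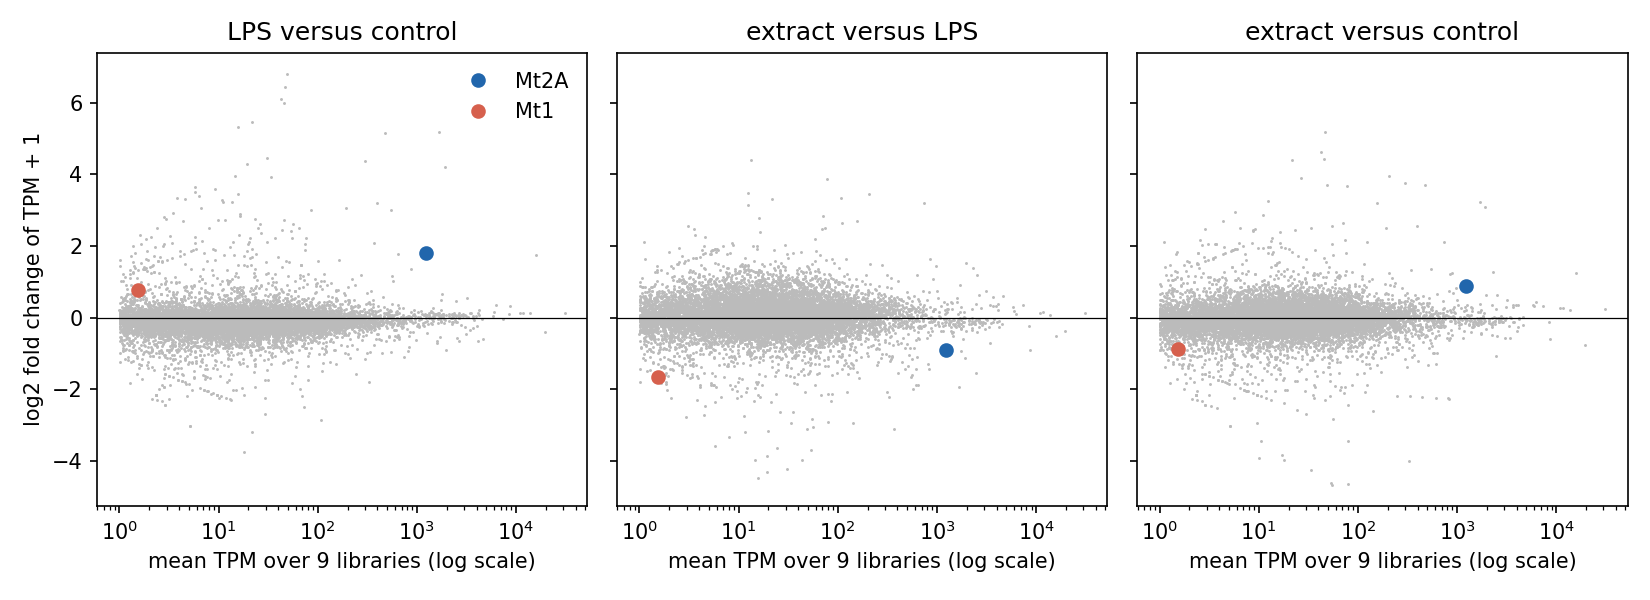
Log2 fold change of TPM + 1 (vertical axis) against mean TPM over the 9 libraries (horizontal axis, log scale) for the 12192 tested genes in grey, with Mt2A in blue and Mt1 in red, in 3 comparisons. Mt2A lies far to the right, at 1.79 (LPS over control), -0.90 (extract over LPS) and 0.90 (extract over control), and Mt1 at the left edge, where low genes scatter widely.

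Of the 12192 tested genes, 144 were called in all 3 comparisons in the order LPS above extract above control, Mt2A among them. Most of these were far less abundant: their median control mean was 16.0 TPM, and 1 of them had a higher control mean than Mt2A. Of the 144, 76 were at least 2-fold higher in LPS than in control cells. At the level of transcripts, 19383 were tested. The transcript tied to Mt2A has the gene's own TPM values, so its fold changes repeat those of the gene and are no second measurement. Its limma adjusted p was 6.85e-07 in LPS versus control, where 5.96% of transcripts were called higher. In extract versus LPS it was 1.45e-05, where 16.2% were called lower, and in extract versus control 2.34e-05, where 14.0% were called higher.

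The genes most like Mt2A over the 9 libraries were 2 identifiers without a name. Likeness was measured as Pearson's r of log2(TPM + 1), and with 3 groups it is set mainly by the group levels. ENSRNOG00000002309 had r = 0.9939, with 19.05 ± 1.08 TPM in extract, 47.9 ± 3.6 TPM in LPS and 7.70 ± 0.92 TPM in control cells (SD, n = 3 each). ENSRNOG00000013973 had r = 0.993, with 14.3 ± 1.1 TPM in extract, 131.2 ± 7.6 TPM in LPS and 0.173 ± 0.067 TPM in control cells. Both were picked for this r, so the same order of groups as in Mt2A follows from the choice. Their changes were larger, 2.49 and 6.82 on the log2 scale in LPS versus control. In all, 18 tested genes reached an r of 0.98 with Mt2A.

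Mt1 was measured near the lower limit of the tested genes, and its values were uneven. In extract cells it was listed at 0, 0 and 0.66 TPM. It had 2.6, 3.24 and 2.41 TPM in LPS cells, against 3.47, 1.34 and 0 TPM in control cells. The control libraries covered the whole range of the other groups, whereas every extract library lay below every LPS library, a lack of overlap found for 65.1% of tested genes in that comparison. By TPM, Mt1 ranked between gene 10443 and gene 12360 in the 6 libraries where it was above 0. A single transcript, ENSRNOT00000057898, had the same TPM in all 9 libraries and was tied to Mt1 by these equal values. The next nearest transcript differed by up to 0.93 TPM in a library. The reference lists 4 pseudogenes under the Mt1 name, whose reads may not be told apart from those of Mt1, and how reads were divided among copies is not given in the sources used here, so the level of Mt1 is uncertain. What the values listed at 0 stand for was not tested.

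On the log2(TPM + 1) scale Mt1 fell by 1.66 ± 0.46 (SE) in extract cells against LPS cells, with a 95% interval of -2.69 to -0.62 (limma adjusted p = 0.0113). This was its 1 call among the 3 comparisons, in the one where 25.0% of tested genes were called lower. Its size was -0.57 at a pseudocount of 5 and -3.85 at 0.1. Mt1 passed the filter of a mean of 1 TPM because of its LPS libraries: over the other 6 its mean was 0.912 TPM. Among 839 tested genes with a mean of 1 to 2 TPM, 52, or 6.20%, were listed at 0 in at least 3 libraries as Mt1 was.

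In LPS versus control the log2 difference of Mt1 was 0.77 ± 0.46 (SE), with an interval of -0.26 to 1.81 (limma adjusted p = 0.215). This interval holds both no change and the 1.79 found for Mt2A. The added 1 TPM shrinks log2 differences of Mt1 and hardly those of Mt2A, so the same value does not mean the same fold change. Without control replicate 1 the difference was 1.29 and passed the threshold (limma adjusted p = 0.0297), and without control replicate 3 it was 0.21 (limma adjusted p = 0.659). In extract versus control it was -0.89 ± 0.46, with an interval of -1.92 to 0.15 (limma adjusted p = 0.136). Without control replicate 3 that value was -1.45 and passed (limma adjusted p = 0.00709), and without control replicate 1 it was -0.37 (limma adjusted p = 0.446). A change of Mt1 against control was therefore not detectable with these libraries.

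**Figure D3:**
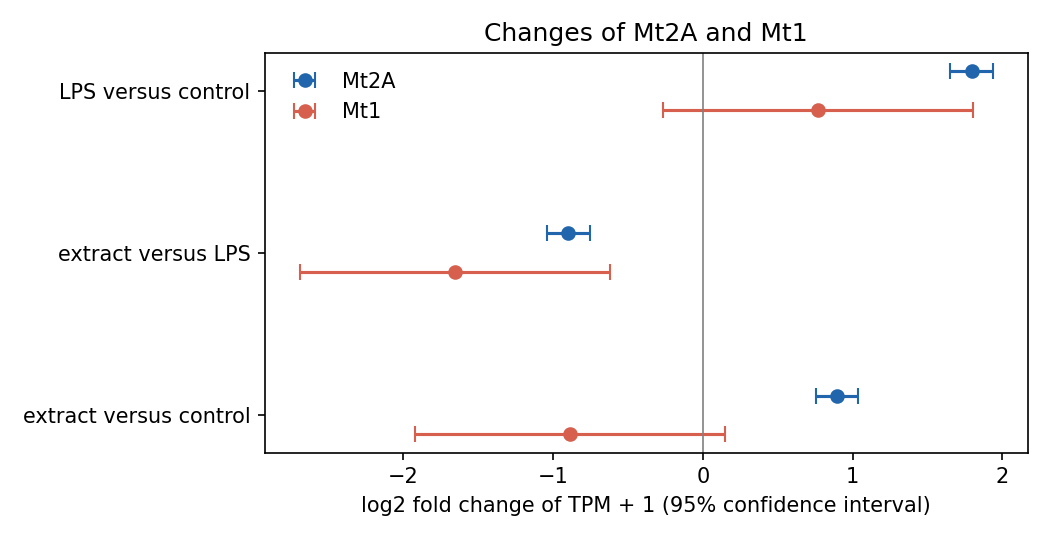
Log2 fold change of TPM + 1 (horizontal axis) of Mt2A and Mt1 in 3 comparisons, with 95% confidence intervals from limma (3 libraries a group). The intervals of Mt2A are narrow and lie away from 0 in all 3 comparisons, and those of Mt1 are wide and lie away from 0 in extract versus LPS.

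The genes most like Mt1 were again unnamed. ENSRNOG00000014653 had r = 0.9428, with 1.64 ± 0.10 TPM in extract, 3.40 ± 0.075 TPM in LPS and 2.59 ± 0.68 TPM in control cells (SD, n = 3 each). Its log2 difference in extract versus LPS was -0.74. ENSRNOG00000018379 had r = 0.9251, with 6.60 ± 1.02 TPM in extract, 9.56 ± 1.23 TPM in LPS and 7.36 ± 2.05 TPM in control cells. The difference of ENSRNOG00000018379 in extract versus LPS was -0.48. Both were picked for their r with Mt1 over these libraries. Their lower level in extract than in LPS cells follows from that choice and is no support for the change of Mt1. No tested gene reached an r of 0.98 with Mt1.

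The pair was then compared within each library, since TPM can be set side by side between genes. The shares carry the uncertainty in the level of Mt1, whose reads may not be told apart from those of its pseudogenes. Mt1 stood at 0.0595% of the TPM of Mt2A in extract replicate 3, the 1 extract library where it was above 0. It was at 0.127%, 0.147% and 0.132% in LPS libraries. In control libraries it was at 0.562%, 0.238% and 0, so the share was steady in the LPS group and not in the control group. In each group the library with the highest Mt2A also had the highest Mt1: extract replicate 3, LPS replicate 2 and control replicate 1. The order of the LPS libraries was the same for both genes, while in control cells the library with the lowest Mt2A, replicate 2, was not the one with Mt1 at 0. With 3 libraries a group these orders were not tested.

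**Figure D4:**
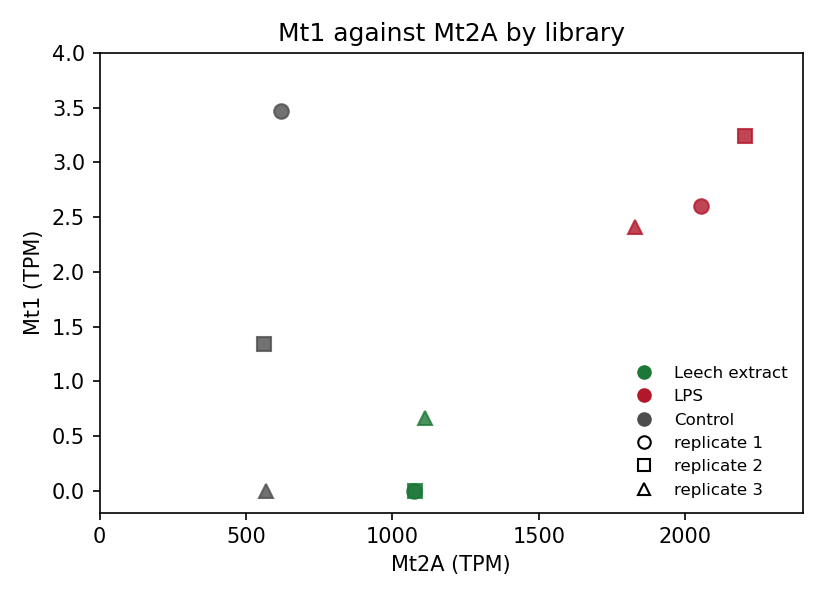
Mt1 (vertical axis, TPM) against Mt2A (horizontal axis, TPM) in the 9 libraries; colour gives the group and marker shape the replicate number, and the 2 extract libraries with Mt1 at 0 lie almost on top of each other. The LPS libraries lie together at 2.41 to 3.24 TPM of Mt1, the extract libraries at 0 to 0.66 TPM, and the control libraries run from 0 to 3.47 TPM at nearly the same Mt2A.

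Whether the 2 genes changed unequally was tested on the log2 ratio of Mt2A to Mt1, each with 1 TPM added, with an exact two-sided permutation test over libraries. With 3 libraries against 3, its smallest possible p is 0.1. The ratio was 9.84 ± 0.39 in extract, 9.08 ± 0.068 in LPS and 8.06 ± 1.03 in control cells (SD, n = 3 each). It was higher in extract than in control cells by 1.78 (exact permutation p = 0.1, 0.15 adjusted over the 3 comparisons). Extract and LPS cells differed by 0.76 (exact permutation p = 0.1, 0.15 adjusted), a difference that turned to -0.32 with a pseudocount of 5. LPS and control cells differed by 1.02 (exact permutation p = 0.3), which became -0.024 with a pseudocount of 0.1. Since no outcome of this test could pass 0.05, it does not show whether the 2 genes changed equally or unequally. The added 1 TPM also weighs more on Mt1 than on Mt2A. Equal fold changes of the 2 genes therefore need not leave this ratio unchanged, whatever the number of libraries. Where Mt1 was listed at 0, the ratio was set by Mt2A alone.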

How the data were processed

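RNA of 9 HBZY-1 libraries, 3 per group, was measured by RNA sequencing. The authors deposited TPM per gene and per transcript, scaled so that every library has the same total, in values with 2 decimals. The tools named, per the submitters' processing notes, are RSEM 1.3.3, HISAT2 2.1.0 and fastp, with no role stated; the build, annotation and strandedness are not given in the sources read for this work. Columns were tied to libraries by the code that opens each title.

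The 12192 genes averaging 1 TPM or more were taken as log2(TPM + 1), which understates changes of low genes. A linear model of the 3 group means over all 9 libraries was fitted in limma 3.58.1 (R 4.3.3), with a trended prior variance, 6 residual degrees of freedom and two-sided tests. Benjamini-Hochberg adjustment ran over all tested genes; an adjusted p below 0.05 is a call. The fit was tested on simulated data. The members and lists were chosen with earlier results of these data known; the motifs were chosen with both promoters in view. The named genes were the members and the 2 genes most correlated with each. Lists of metal-handling, stress and cell type marker genes were not analysed here, because no table pairs their names with identifiers.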

Additional observations from a re-analysis of the deposited data

How the results depend on the processing

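Mt2A stayed called in the same direction in each comparison under the 19 alternatives run (pseudocount, filter, scaling, replicate block, fit of 2 groups, no trend, library weights, each library left out). They ran from 1.73 to 1.89 in LPS versus control (limma adjusted p from 1.85e-08 to 2.02e-05), from -0.97 to -0.84 in extract versus LPS (8.42e-07 to 0.000112) and from 0.87 to 0.94 in extract versus control (1.32e-06 to 7.51e-05). Mt1 was not in the fit with a filter of 5 TPM. Its call in extract versus LPS held in the other 18 (limma adjusted p from 0.00107 to 0.0435). All but 1 of these kept the filter that Mt1 passed because of its LPS libraries, so they do not test that choice. The exception took every gene with a TPM above 0 in some library (limma adjusted p = 0.0266). In LPS versus control the uncalled difference of Mt1 became a call when control replicate 1 was left out. In extract versus control it did so when control replicate 3 was left out. No other left-out library gave a call in these comparisons. With each library left out in turn the differences ran from 0.21 to 1.29 in LPS versus control. They ran from -1.45 to -0.37 in extract versus control. The log2 ratio of Mt2A to Mt1 turned to -0.024 in LPS versus control with a pseudocount of 0.1. In extract versus LPS it turned to -0.32 with a pseudocount of 5. In that comparison Mt1 changed by -3.85, -1.66 and -0.57 at pseudocounts of 0.1, 1 and 5, and Mt2A by -0.90 at each. A change in the log2 ratio is the change of Mt2A minus that of Mt1, so its sign depends on the pseudocount.

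With the replicate block the calls of both genes were the same, with a limma adjusted p of 0.0206 for Mt1 in extract versus LPS, and 4658, 7072 and 6070 genes were called in LPS versus control, extract versus LPS and extract versus control. Deviations of libraries with the same number correlated between -0.06 and 0.10, and those with different numbers between -0.11 and 0.09. The numbers were therefore not taken to pair the libraries. In LPS versus control, lower genes made up 76% of calls as deposited, 52% after median-of-ratios scaling and 55.3% after quantile normalization. Without read depth, what separates a low Mt1 from an undetected one was not examined.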
